A study of Mus musculus with 8 samples.

Results

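Transcripts of 10 genes for collagens and other proteins of the stromal matrix were followed across macrophage libraries. They were Col1a1, Col1a2, Col3a1, Col5a1, Col6a1, Sparc, Fn1, Dcn, Lum and Olfml3, chosen by name as known fibroblast markers, and they were 10 of the 23366 genes in the deposited table. The choice was made with earlier results of these data known. Counts of these transcripts given beside the share of all tested genes are therefore descriptions and no test of the set. The libraries were RNA-seq of macrophages grown from bone marrow on a C57BL/6 background, in 4 groups of 2. The groups were knock-in cells (KI, Lsd1SA/SA, which the labels call defective in phosphorylation of the histone demethylase LSD1) given lipopolysaccharide (LPS), untreated KI cells, wild-type (WT) cells given LPS, and untreated WT cells. Per the labels, all cells were at passage 1 and were starved of serum for 24 h, and LPS was given for 2 h at a label dose of 1 mg/ml. For the KI LPS libraries LPS is named outside the title, which states the time alone. The labels give no age and leave unsaid whether the 2 libraries of a group are from different mice or cultures. The spread behind each p-value is therefore that between libraries, which may be technical.

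Fibrillar collagens are secreted as chains that wind into trimers, are trimmed outside the cell and are cross-linked into fibres. Col1a1 and Col1a2 encode the chains of type I collagen, Col3a1 the chain of type III and Col5a1 a chain of type V, which helps to start fibril assembly, whereas Col6a1 encodes a chain of the beaded-filament collagen type VI. Fn1 encodes fibronectin, Sparc a secreted collagen-binding glycoprotein, Dcn and Lum small leucine-rich proteoglycans that bind collagen fibrils, and Olfml3 a secreted olfactomedin-like protein. Fibroblasts are the best known source of most of them. Macrophages are known to make fibronectin, and human macrophages have been described as making type VI collagen.

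RefSeq promoters of GRCm38.p6, which run from 250 bases before to 50 bases after the gene start, were at hand for 6 of the 10 genes. Those of Olfml3, Col1a2 and Col3a1 are shown because, of these 6, they had the highest ratios of KI LPS to untreated KI cells. Capitals mark matches, on either strand, to the CCAAT box, to the TATA box letters TATAAA, to the GC box GGGCGG or to the AP-1 motif TGANTCA, each line running 5′ to 3′ on the strand of the gene. Olfml3 lies at chr3:103737952-103738251 on the minus strand, Col1a2 at chr6:4505368-4505667 on the plus strand and Col3a1 at chr1:45311288-45311587 on the plus strand.
Olfml3: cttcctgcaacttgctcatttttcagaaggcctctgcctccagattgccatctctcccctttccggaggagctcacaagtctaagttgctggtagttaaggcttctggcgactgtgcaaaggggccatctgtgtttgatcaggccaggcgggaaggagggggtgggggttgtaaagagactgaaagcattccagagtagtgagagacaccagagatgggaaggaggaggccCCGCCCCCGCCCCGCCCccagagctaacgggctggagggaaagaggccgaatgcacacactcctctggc
Col1a2: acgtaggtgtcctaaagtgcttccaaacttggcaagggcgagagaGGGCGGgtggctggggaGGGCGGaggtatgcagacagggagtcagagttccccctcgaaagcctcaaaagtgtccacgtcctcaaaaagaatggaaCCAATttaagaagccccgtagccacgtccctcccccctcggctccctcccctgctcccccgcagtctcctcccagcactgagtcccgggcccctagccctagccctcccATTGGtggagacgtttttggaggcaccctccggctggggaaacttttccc
Col3a1: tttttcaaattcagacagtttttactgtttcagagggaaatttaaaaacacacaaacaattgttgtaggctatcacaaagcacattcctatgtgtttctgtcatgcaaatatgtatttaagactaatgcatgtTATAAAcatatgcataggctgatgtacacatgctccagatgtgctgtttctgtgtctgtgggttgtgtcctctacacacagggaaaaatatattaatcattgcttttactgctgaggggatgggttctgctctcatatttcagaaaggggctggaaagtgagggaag
The Olfml3 window held 3 copies of GGGCGG, all on the opposite strand, of which a pair share a base. The Col1a2 window held 2 copies of GGGCGG and 2 of CCAAT, and the Col3a1 window held 1 TATAAA. Of the other promoters at hand, that of Col5a1 held 2 copies of GGGCGG, that of Col6a1 held 1 TGANTCA and that of Sparc held none of the 4 motifs. Among all 32851 promoters of this length, 37.4% held CCAAT, 13.6% TATAAA, 35.7% GGGCGG and 7.81% TGANTCA. No single motif was present in all 6 windows, and a match is only a run of letters, not a binding site.

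The KI LPS libraries stood apart from the other 6 in the sex of the cells. Xist, the RNA of the inactive X chromosome, had a signal of 0.366 and 0.212 in the KI LPS libraries, against 315 to 437 in the other 6. Reads of the 4 Y-linked genes Kdm5d, Uty, Eif2s3y and Ddx3y summed to at least 4993 in each KI LPS library and to at most 2 in any other. The KI LPS libraries thus had the pattern of male cells and the other 6 that of female cells, and in every comparison that uses the KI LPS libraries the LPS or genotype difference cannot be told apart from a difference in sex or animal. Library totals were 40379258 to 55595160 reads. The signal is the authors' normalized value, which is reads divided by a scaled library size. Its sum over all genes ran from 934403 in untreated WT replicate 2 to 1.16e+06 in WT LPS replicate 2. A share of reads is thus on another scale than the signal. Kdm1a, which encodes LSD1, had 39.3 and 40.4 in KI LPS, 33.7 and 32.6 in untreated KI, 47.3 and 45.8 in WT LPS and 33.9 and 31.1 in untreated WT libraries, and its transcript level does not check a knock-in allele.

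All 10 transcripts were a small part of these libraries. Together they took 11075 and 12070 reads in the KI LPS libraries, 1972 and 2448 in untreated KI, 1381 and 1611 in WT LPS and 2312 and 1645 in untreated WT libraries. That was 0.0217% of the reads in both KI LPS libraries, 0.00479% and 0.00473% in untreated KI, 0.00305% and 0.00315% in WT LPS and 0.00459% and 0.00407% in untreated WT libraries. The share of the KI LPS libraries was thus higher than that of any other library. Olfml3 alone made up 59.8% and 59.0% of the summed signal of the 10 transcripts in KI LPS, against 27.8% and 30.0% in untreated KI, 26.1% and 30.9% in WT LPS and 29.9% and 31.7% in untreated WT libraries. In bulk RNA, more cells that make a transcript and more of it in each cell cannot be told apart.

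**Figure D1:**
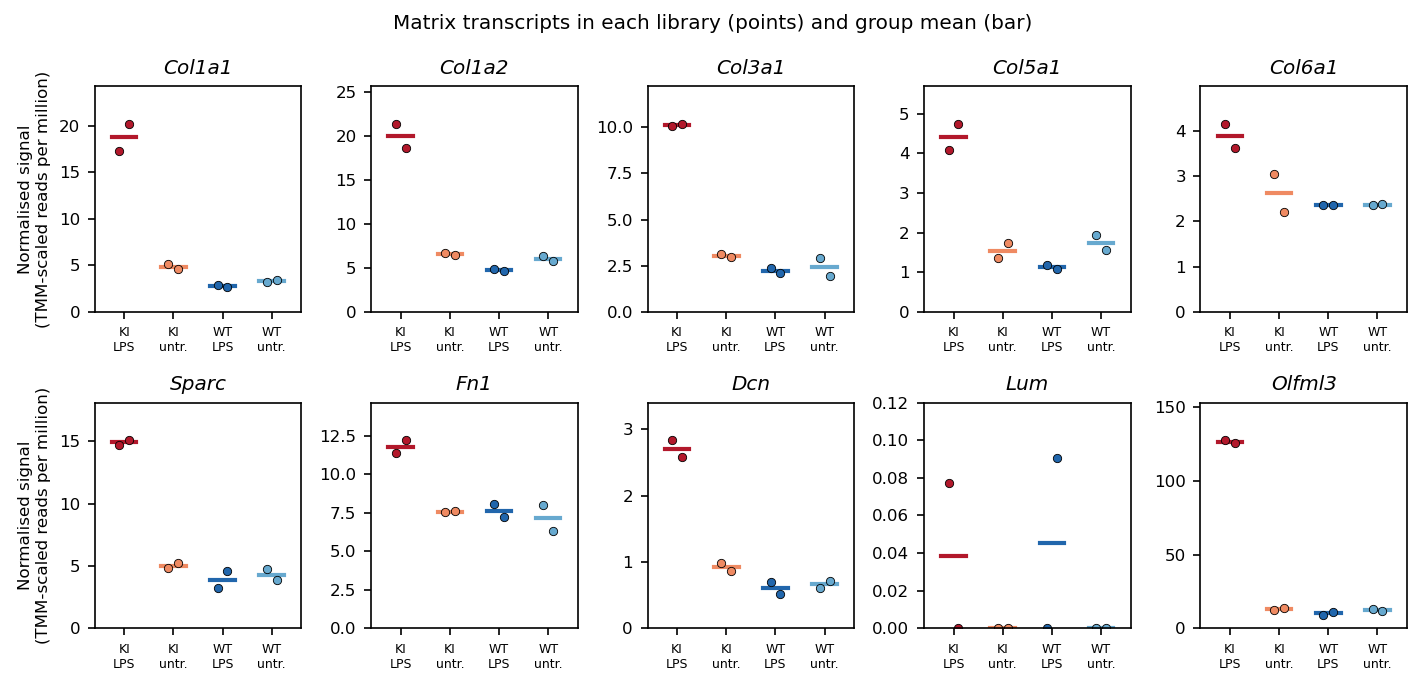
Signal of each of the 10 transcripts in every library (points) with the group mean (bar), each panel on its own linear axis from 0, with KI LPS, untreated KI, WT LPS and untreated WT from left to right (n = 2 each). For 9 of the 10 both KI LPS libraries lie above the other 6, and Lum is at or near 0 in every library. Against untreated KI alone, 41.1% of all tested genes were higher in KI LPS without overlap. The share above all of the other 6 libraries was not counted.

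In the KI cells, 9 of the 10 transcripts were called higher with LPS than without it, and Lum could not be tested. Olfml3 had a signal of 128 and 126 in KI LPS, 12.6 and 13.6 in untreated KI, 9.05 and 11.2 in WT LPS and 12.8 and 12.1 in untreated WT libraries. Both KI LPS libraries were far above the other 6, and the untreated KI and untreated WT libraries overlapped. The mean of 127 ± 1.46 in KI LPS was 9.68 times the 13.1 ± 0.666 in untreated KI cells (SD, n = 2 each), a difference of 3.18 ± 0.086 (SE) in log2(signal + 1) with an adjusted p of 1.84e-19 by limma. Only 0.101% of the 11919 genes tested had a higher difference. In this comparison limma, with Benjamini-Hochberg adjustment over all of them at 0.05, called 28.5% of genes higher and 28.3% lower, and 41.1% were higher without overlap of the libraries.

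Both chains of type I collagen were higher in KI LPS than in untreated KI cells. Col1a1 had 17.2 and 20.2 in KI LPS, 5.10 and 4.56 in untreated KI, 2.91 and 2.62 in WT LPS and 3.17 and 3.42 in untreated WT libraries. Col1a2 had 21.4 and 18.7 in KI LPS, 6.66 and 6.50 in untreated KI, 4.87 and 4.59 in WT LPS and 6.31 and 5.81 in untreated WT libraries. For both genes the order of the groups was KI LPS, untreated KI, untreated WT and WT LPS, with no overlap between neighbours. The mean of KI LPS was 3.88 times that of untreated KI for Col1a1 (log2 difference 1.76 ± 0.12, SE, limma adjusted p = 4.28e-12) and 3.05 times for Col1a2 (1.47 ± 0.10, adjusted p = 1.63e-11).

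Col3a1, the type III chain, had 10.0 and 10.2 in KI LPS, 3.15 and 2.95 in untreated KI, 2.36 and 2.10 in WT LPS and 2.93 and 1.97 in untreated WT libraries. KI LPS again had the highest libraries, and the WT LPS and untreated WT libraries overlapped. The ratio of KI LPS to untreated KI was 3.32 (log2 difference 1.46 ± 0.13, limma adjusted p = 1.71e-09). Col5a1, the type V chain, had 4.07 and 4.75 in KI LPS, 1.35 and 1.74 in untreated KI, 1.18 and 1.09 in WT LPS and 1.93 and 1.55 in untreated WT libraries. Its lowest libraries were those of WT LPS, and untreated KI and untreated WT overlapped. The ratio of KI LPS to untreated KI was 2.85 (1.09 ± 0.14, adjusted p = 5.39e-07).

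Sparc, whose product binds collagen, had 14.7 and 15.1 in KI LPS, 4.85 and 5.21 in untreated KI, 3.22 and 4.59 in WT LPS and 4.75 and 3.84 in untreated WT libraries. Below KI LPS, the untreated KI libraries were above all WT libraries. Dcn, or decorin, had 2.84 and 2.58 in KI LPS, 0.987 and 0.868 in untreated KI, 0.704 and 0.520 in WT LPS and 0.613 and 0.717 in untreated WT libraries. The ratio of KI LPS to untreated KI was 2.97 for Sparc (log2 difference 1.40 ± 0.13, limma adjusted p = 1.60e-09) and 2.92 for Dcn (0.94 ± 0.15, adjusted p = 7.01e-06). Dcn passed the filter on low values, a signal of 1 or more in at least 2 libraries, only through the KI LPS libraries, so its test is a description. On the log2(signal + 1) scale its change is understated, and a pseudocount of 0.1 gave 1.45.

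Fn1 and Col6a1 moved least. Fn1 had 11.4 and 12.2 in KI LPS, 7.53 and 7.61 in untreated KI, 8.04 and 7.21 in WT LPS and 8.001 and 6.29 in untreated WT libraries. Col6a1 had 4.17 and 3.62 in KI LPS, 3.05 and 2.22 in untreated KI, 2.36 and 2.37 in WT LPS and 2.36 and 2.38 in untreated WT libraries. For both genes KI LPS was above the other 6 libraries, and each pair of neighbours in the order of the other 3 groups overlapped. The ratio of KI LPS to untreated KI was 1.56 for Fn1 (log2 difference 0.58 ± 0.11, limma adjusted p = 1.02e-04) and 1.48 for Col6a1 (0.44 ± 0.14, adjusted p = 0.00858). The Col6a1 call rested on single libraries: it was lost without KI LPS replicate 1 (0.35, adjusted p = 0.0946) and without untreated KI replicate 2 (0.27, adjusted p = 0.176).

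Lum, or lumican, which lies next to Dcn, had 4 reads in 1 KI LPS library and 4 reads in 1 WT LPS library, and none in the other 6. A count of 0 allows a signal of up to 0.0529 to 0.0754, depending on the library (3 reads, counting error only). Lum was thus at or close to the detection limit in every group.

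In the WT cells the 9 tested transcripts differed between LPS and untreated cells by at most 0.36 in log2(signal + 1), and those called were lower with LPS. In this comparison limma called 3662 of the tested genes (30.7%) lower and 3199 (26.8%) higher, and after quantile normalization 4640 lower and 2539 higher. Of the 10 transcripts, 3 were called lower and none higher. They were Olfml3, at 10.1 ± 1.55 in WT LPS and 12.5 ± 0.543 in untreated WT cells (SD, n = 2 each), with a log2 difference of -0.28 ± 0.086 (SE, limma adjusted p = 0.00764), Col1a2 at -0.30 ± 0.10 (adjusted p = 0.0165), and Col5a1 at -0.36 ± 0.14 (adjusted p = 0.0324). Col1a1 was also lower in both WT LPS libraries than in both untreated WT libraries, with a log2 difference of -0.19 (adjusted p = 0.166), and 41% of all tested genes were lower without overlap. Sparc (-0.12), Col3a1 (-0.08), Dcn (-0.05), Col6a1 (-0.0012) and Fn1 (0.09) overlapped between the 2 groups, with limma adjusted p-values of 0.439 to 0.995. The 3 calls turned on single libraries: without untreated WT replicate 1 none of the 10 transcripts was called, without WT LPS replicate 1 only Col1a2 was, and without WT LPS replicate 2 only Olfml3 was. After quantile normalization all 3 calls were lost, and Fn1 was called higher (0.26, limma adjusted p = 0.0444). Without the KI LPS libraries in the fit 3 were called, again Olfml3, Col1a2 and Col5a1.

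The LPS difference was larger in KI than in WT for most of the transcripts. The interaction, which is the log2 LPS difference in KI minus that in WT, was called higher for 8 of the 10 transcripts, against 31.8% of all tested genes. Dcn is 1 of the 8, and as it passed the filter only through KI LPS its value is a description. The interaction was 3.46 ± 0.12 for Olfml3 (limma adjusted p = 1.37e-17), 1.95 ± 0.16 for Col1a1, 1.77 ± 0.15 for Col1a2, 1.54 ± 0.19 for Col3a1, 1.52 ± 0.18 for Sparc, 1.45 ± 0.20 for Col5a1 and 0.99 ± 0.21 for Dcn. Fn1 stood lower at 0.49 ± 0.16 (adjusted p = 0.00880), and this call was lost without untreated WT replicate 1 (0.34, adjusted p = 0.0711). Col6a1 missed the threshold at 0.44 ± 0.19 (adjusted p = 0.0501). Both LPS differences enter the interaction, so it cannot be told apart from the sex difference of the KI LPS cells either.

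**Figure D2:**
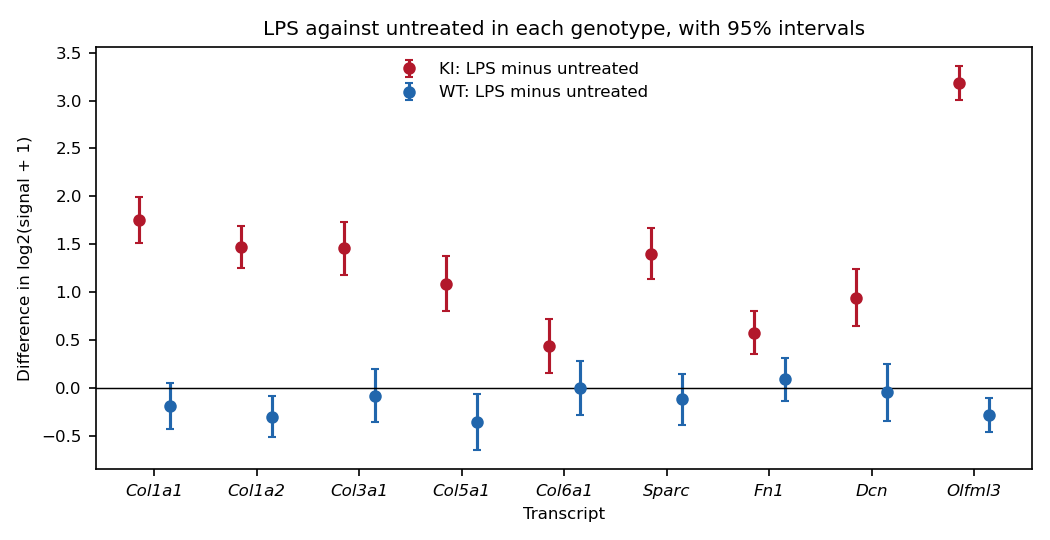
Difference between LPS and untreated libraries in log2(signal + 1) for the 9 tested transcripts, in KI and in WT, with 95% intervals from limma. The KI differences run from 0.44 for Col6a1 to 3.18 for Olfml3, and the WT differences from -0.36 for Col5a1 to 0.09 for Fn1.

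With LPS, the KI cells had more of the 9 tested transcripts than the WT cells. All 9 were called higher, Dcn again only through the filter in KI LPS, in a comparison in which limma called 38.5% of tested genes higher and 36.8% lower. The KI LPS mean was 12.5 times the WT LPS mean for Olfml3, 6.77 times for Col1a1, 4.54 times for Col3a1, 4.42 times for Dcn, 4.24 times for Col1a2, 3.89 times for Col5a1 and 3.82 times for Sparc. Col6a1 at 1.64 times and Fn1 at 1.55 times were again the least apart, with log2 differences of 0.54 ± 0.14 (limma adjusted p = 0.00106) and 0.57 ± 0.11 (adjusted p = 6.33e-05). This comparison and the one within the KI cells share the KI LPS libraries, so they are not separate evidence.

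Without LPS, in cells with Xist RNA in both genotypes, no transcript of the 10 was called between KI and WT. By limma only 0.00839% of the tested genes, a single gene, was called at all, and edgeR on the recovered reads called 0 of the 10 transcripts too. DESeq2 gave an adjusted p for 1 of them only, Olfml3, and did not call it. Without untreated WT replicate 1 limma called 481 genes, and still 0 of the 10 transcripts. At an unadjusted p under 0.05 limma gave 1 of the 10, against 6.56% of all tested genes that were higher at that level. It was Col1a1, at 4.83 ± 0.381 in untreated KI and 3.30 ± 0.177 in untreated WT cells (SD, n = 2 each). Its ratio was 1.46 and its log2 difference 0.44 ± 0.12 (limma unadjusted p = 0.000954, adjusted p = 0.140), and 0.101% of tested genes had a higher difference. Both untreated KI libraries were above both untreated WT libraries for Col1a1, Col1a2, Col3a1, Sparc and Dcn, which is 5 of the 10, while 21.4% of all tested genes were higher without overlap. The 95% interval of the log2 difference was 0.20 to 0.68 for Col1a1, -0.03 to 0.52 for Col3a1, -0.09 to 0.51 for Dcn, -0.07 to 0.45 for Sparc and -0.18 to 0.38 for Col6a1. It was -0.11 to 0.32 for Col1a2, -0.15 to 0.31 for Fn1, -0.11 to 0.24 for Olfml3 and -0.40 to 0.18 for Col5a1.

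The transcripts kept partly fixed proportions to each other. Relative to Col1a2 in the same library, Col3a1 was 0.339 to 0.546, Sparc 0.660 to 1.00 and Dcn 0.0971 to 0.148 over all 8 libraries. Within these ranges, KI LPS was above untreated WT without overlap for Col3a1 and Dcn. Col3a1 was 0.469 and 0.546 in KI LPS and 0.465 and 0.339 in untreated WT libraries. Dcn was 0.132 and 0.138 in KI LPS and 0.0971 and 0.124 in untreated WT libraries. Fn1 relative to Col1a2 was 0.531 and 0.653 in KI LPS, 1.13 and 1.17 in untreated KI, 1.65 and 1.57 in WT LPS and 1.27 and 1.08 in untreated WT libraries. Fn1 and Col6a1 thus made up a smaller part, relative to Col1a2, in the KI LPS libraries than in any other. Col6a1 relative to Col1a2 was 0.195 and 0.194 in KI LPS, 0.459 and 0.341 in untreated KI, 0.485 and 0.517 in WT LPS and 0.374 and 0.410 in untreated WT libraries. Olfml3 went the other way, at 5.96 and 6.72 in KI LPS, 1.89 and 2.09 in untreated KI, 1.86 and 2.45 in WT LPS and 2.04 and 2.08 in untreated WT libraries. Col1a1 relative to Col1a2 was 0.805 and 1.08 in KI LPS, 0.766 and 0.702 in untreated KI, 0.598 and 0.571 in WT LPS and 0.503 and 0.590 in untreated WT libraries, so that all KI libraries were above all WT libraries.

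**Figure D3:**
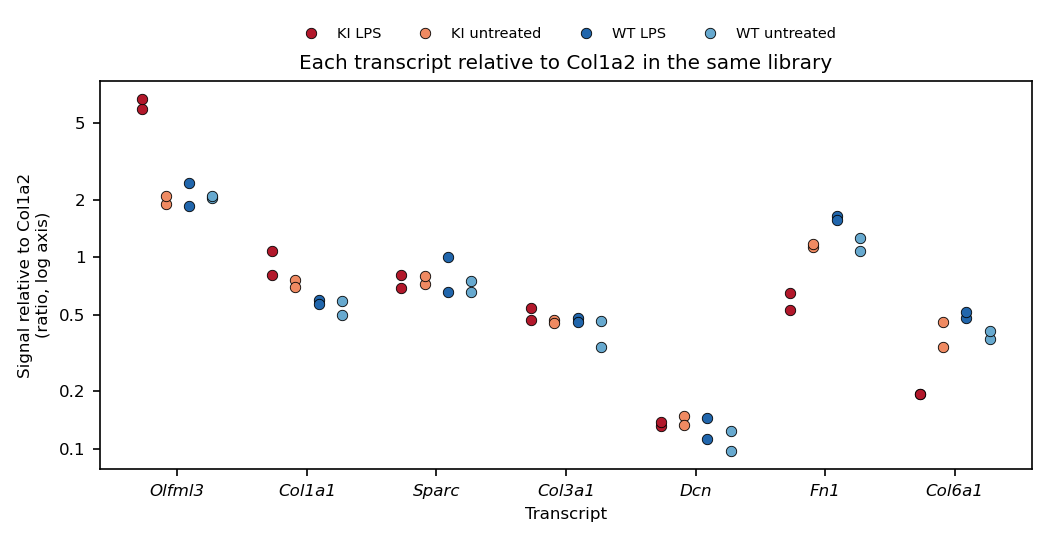
Signal of 7 transcripts divided by that of Col1a2 in the same library, on a log axis, for KI LPS, untreated KI, WT LPS and untreated WT (2 libraries each). For Col3a1, Sparc and Dcn the ratios in KI LPS overlap those in untreated KI and in WT LPS, Olfml3 is higher in KI LPS, and Fn1 and Col6a1 are lower. Against untreated WT, Sparc overlaps, while Col3a1 and Dcn are higher in KI LPS.

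Per kilobase of the longest protein-coding transcript, Olfml3 had the highest signal and Sparc the next in every group, and Col5a1 and Lum the lowest. Olfml3 reached 23.2 per kb in KI LPS, 2.39 in untreated KI, 1.86 in WT LPS and 2.28 in untreated WT cells. Col1a2 had 3.75 per kb in KI LPS, 1.23 in untreated KI, 0.885 in WT LPS and 1.13 in untreated WT cells. Fn1, at 1.42 per kb in KI LPS, 0.910 in untreated KI, 0.917 in WT LPS and 0.860 in untreated WT cells, was number 7 in order in KI LPS, 4 in untreated KI, 3 in WT LPS and 4 in untreated WT cells. These lengths are from GENCODE vM21, another annotation than that behind the table. There Fn1 overlaps Apol7d on the opposite strand, which was at 0 in every library, and Col5a1 overlaps 2 genes on the opposite strand that were not in the table. Col1a2 and Col3a1 each overlap 1 gene on their own strand (Gm43921 and Gm47302), and their reads could not be told apart.

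Genes that lie beside these transcripts were not alike in their values. Col5a2, which encodes another type V chain and is the neighbour of Col3a1, had 12.2 ± 0.560 in KI LPS and 2.89 ± 0.423 in untreated KI cells (SD, n = 2 each; log2 difference 1.77 ± 0.12, limma adjusted p = 1.46e-11). Col6a2, a type VI chain beside Col6a1, had 3.03 ± 0.595 in KI LPS and 2.05 ± 0.084 in untreated KI cells (0.39, adjusted p = 0.0224). Kera, the proteoglycan gene beyond Lum, was at 0 in all 8 libraries. Bet1, beside Col1a2, had 19.6 ± 0.212 in KI LPS and 20.7 ± 1.71 in untreated KI cells (-0.069, adjusted p = 0.489).

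Outside the 10 transcripts, the genes whose log2(signal + 1) was most like that of Col1a1 over the 8 libraries were Aga, Tmem221, Coq2, Soat2, Lrpap1, Bgn, Hist2h3c1, Il12rb1, C1ra and Wdr55, with Pearson r from 0.990 to 0.997. Predicted genes and genes of low signal in every group were left out of this ranking. Bgn encodes biglycan, a proteoglycan related to decorin, and Aga a lysosomal enzyme. Dcn had r = 0.991, Col1a2 0.984, Col3a1 0.983, Olfml3 0.978 and Sparc 0.972. Of all tested genes besides Col1a1, 942, or 7.90%, had r over 0.9. Over the 6 libraries without KI LPS, the 10 genes named first, which were picked over all 8, had r to Col1a1 from 0.838 to 0.968. Col1a2 had 0.846 there, Col3a1 0.709, Olfml3 0.614 and Sparc 0.531. All of these were below the values over 8 libraries, which thus depended in part on the KI LPS libraries. Among the 36 pairs of the 9 tested transcripts, r ran from 0.821 to 0.991 over 8 libraries with a median of 0.959, but from -0.24 to 0.949 with a median of 0.492 over the 6 libraries without KI LPS. The pair of Col1a1 and Dcn had r = 0.949 over those 6 libraries and that of Col1a1 and Fn1 had 0.0188. The libraries share their 4 groups, so these are descriptions.

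Other collagen genes were higher with LPS in KI cells in most cases, with 1 large exception. Of 13 genes, 9 passed the filter, and 6 were called higher and 1 lower in KI (median log2 difference 0.61, against 0.016 over all tested genes, of which 28.5% were called higher and 28.3% lower). Besides Col5a2, Col12a1 had 6.13 in KI LPS and 2.77 in untreated KI cells, and Col4a1, a basement membrane chain, had 3.24 in KI LPS and 1.57 in untreated KI cells. Col18a1, the precursor of endostatin, was lower, at 8.08 in KI LPS and 44.8 in untreated KI cells (-2.34 ± 0.073, limma adjusted p = 2.84e-18), but higher in WT, at 71.6 in WT LPS and 43.3 in untreated WT cells. In WT 3 of the 9 were called higher and none lower, where 26.8% of all tested genes were called higher, among them Col15a1 at 3.95 in WT LPS and 1.15 in untreated WT cells. Here as below, a gene could pass the filter through the group in which it was high, so the counts and medians describe the lists and are no test of them.

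Enzymes and chaperones of collagen assembly were mixed. Of 17 tested genes, 8 were called higher and 4 lower in KI, and 6 higher and 3 lower in WT. Over all tested genes, limma called 28.5% higher and 28.3% lower in KI, and 26.8% higher and 30.7% lower in WT. Lox, a collagen cross-linking enzyme, had 22.0 ± 1.23 in KI LPS and 7.14 ± 0.418 in untreated KI cells (log2 difference 1.50, limma adjusted p = 2.20e-11), and 11.2 ± 0.712 in WT LPS and 5.60 ± 1.04 in untreated WT cells. Serpinh1, the collagen chaperone HSP47, had 7.14 in KI LPS and 2.52 in untreated KI cells, and Loxl2, another cross-linking enzyme, 5.75 in KI LPS and 2.38 in untreated KI cells. P4ha2, a collagen prolyl hydroxylase subunit, was lower, at 3.18 in KI LPS and 10.8 in untreated KI cells. Bmp1, which trims procollagen, was called higher in both genotypes, at 1.99 in KI LPS and 0.700 in untreated KI cells, and at 3.89 in WT LPS and 1.15 in untreated WT cells.

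Among other matrix glycoproteins and proteoglycans, 10 of 12 tested genes were called higher in KI and none lower, whereas in WT 2 were called higher and 1, Thbs2, lower. The shares of all tested genes called higher were 28.5% in KI and 26.8% in WT. Some of the 10 passed the filter on low values only through the KI LPS libraries, so that count and the medians are descriptions. The median log2 difference was 0.76 in KI and -0.033 in WT, where all tested genes had -0.032. Thbs2, a thrombospondin, had 8.31 ± 0.419 in KI LPS and 1.55 ± 0.660 in untreated KI cells, Tnc, or tenascin C, 4.89 ± 0.477 in KI LPS and 1.34 ± 0.141 in untreated KI cells, and Fbn1, or fibrillin 1, 5.26 ± 0.047 in KI LPS and 1.75 ± 0.065 in untreated KI cells (SD, n = 2 each). Thbs1 was higher with LPS in both genotypes, at 235 in KI LPS and 84.3 in untreated KI cells, and 376 in WT LPS and 86.2 in untreated WT cells. Vcan, or versican, was called in WT at 1.92 in WT LPS and 0.788 in untreated WT cells.

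Proteases that cut matrix, and their inhibitors, were called higher for 6 and lower for 3 of 11 tested genes in KI, and higher for 6 and lower for 1 in WT. Over all tested genes these shares were 28.5% and 28.3% in KI, and 26.8% and 30.7% in WT. Mmp14, a membrane-bound collagenase, had 378 in KI LPS and 128 in untreated KI cells, and 534 in WT LPS and 116 in untreated WT cells. Mmp12, macrophage elastase, was lower in KI, at 482 in KI LPS and 1738 in untreated KI cells, and Mmp19 was lower in both genotypes, at 35.7 in KI LPS and 64.3 in untreated KI cells, and at 49.5 in WT LPS and 68.3 in untreated WT cells. Mmp8, neutrophil collagenase, had 61.7 in KI LPS and 21.7 in untreated KI cells, and Mmp13, another collagenase, had 727 in WT LPS and 128 in untreated WT cells.

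Receptors for collagen and fibronectin had opposite medians in the 2 genotypes. Of 8 tested genes, 3 were called higher and 5 lower in KI (median log2 difference -0.31), and 5 higher and none lower in WT (median 0.79). The shares of all tested genes were 28.5% higher and 28.3% lower in KI, and 26.8% higher and 30.7% lower in WT. Itga5, a chain of the fibronectin receptor, had 254 in KI LPS and 145 in untreated KI cells, and 1419 in WT LPS and 140 in untreated WT cells. Itgb3 had 2.75 in KI LPS and 11.5 in untreated KI cells, Mrc1, the mannose receptor, which also binds collagen, 342 in KI LPS and 723 in untreated KI cells, and Itga11, a collagen-binding integrin chain, 1.59 in KI LPS and 0.180 in untreated KI cells. Itga11 passed the filter on low values only through the KI LPS libraries. Itgav had 515 in WT LPS and 113 in untreated WT cells. By the interaction 7 of the 8 were called lower and 1 higher, where limma called 31.8% of all tested genes lower and 31.8% higher.

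Of 13 tested genes of the TGF-beta pathway, a known inducer of collagen genes, 7 were called higher and 3 lower in KI, and 6 higher and 3 lower in WT. Over all tested genes the shares were 28.5% higher and 28.3% lower in KI, and 26.8% higher and 30.7% lower in WT. Skil, which encodes an inhibitor of SMAD proteins, had 105 in KI LPS and 47.1 in untreated KI cells, and 476 in WT LPS and 51.2 in untreated WT cells. Tgfbi had 228 in KI LPS and 125 in untreated KI cells, and Ltbp3, a binding protein of latent TGF-beta, 17.4 in KI LPS and 42.2 in untreated KI cells.

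**Figure D4:**
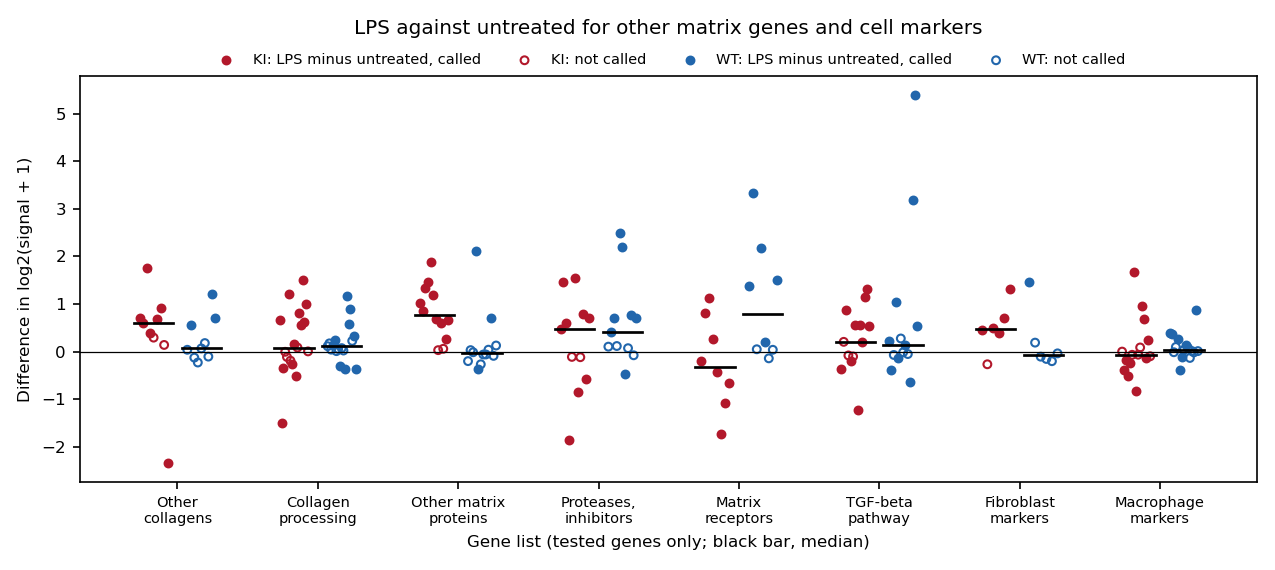
Difference between LPS and untreated libraries in log2(signal + 1) for each tested gene of 8 gene lists, in KI and in WT, with filled points for genes called by limma and a bar at the median. The medians in KI are highest for other matrix proteins (0.76) and other collagens (0.61), and lowest for matrix receptors (-0.31). Some genes of these lists passed the filter only through the KI LPS libraries, so the medians are descriptions.

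Markers of other cells moved with the collagens in part. Of 14 fibroblast markers other than the 10 transcripts, 6 passed the filter. Of these, 5 were called higher and none lower in KI, where 28.5% of all tested genes were called higher. Some of the 5 passed the filter on low values only through the KI LPS libraries, so that count is a description. The summed signal of the 14 was 17.6 to 17.9 in KI LPS, 8.31 to 8.84 in untreated KI, 10.8 to 11.1 in WT LPS and 8.10 to 8.47 in untreated WT libraries. Serping1, a complement inhibitor, had 6.44 ± 0.155 in KI LPS and 1.99 ± 0.364 in untreated KI cells (SD, n = 2 each), and Cxcl12, Cdh11 and Pdgfrb were also called higher in KI. Serping1 had the highest signal of the 14 in KI LPS, and so weighed most in their sum there. Pdgfrb was highest in WT LPS, at 3.75, against 0.728 in untreated WT cells. Among the defining markers, Tcf21 was at 0 in every library, Pdgfra had 0.914 in KI LPS, 0.203 in untreated KI, 0.531 in WT LPS and 0.431 in untreated WT cells, and Thy1 had 1.11 in KI LPS, 1.54 in untreated KI, 1.72 in WT LPS and 1.36 in untreated WT cells. Whether fibroblasts contributed to the collagen signal was not tested.

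The other markers did not move together. Beside the calls below, limma called 28.5% of all tested genes higher and 28.3% lower in KI, and 26.8% higher in WT. The 15 macrophage markers summed to 32397 to 33861 in KI LPS, 27807 to 28713 in untreated KI, 29975 to 30028 in WT LPS and 27680 to 28015 in untreated WT libraries, and 4 were called higher and 6 lower in KI. Ctss, or cathepsin S, had 13517 in KI LPS and 6906 in untreated KI cells. Without it the others summed to 19230 to 19994 in KI LPS, 20939 to 21769 in untreated KI, 23713 to 23882 in WT LPS and 20987 to 21137 in untreated WT libraries. Csf1r, the receptor of macrophage colony-stimulating factor, had 1277 in KI LPS, 1273 in untreated KI, 1631 in WT LPS and 1244 in untreated WT cells. The 6 smooth muscle markers summed to 17.9 to 19.6 in KI LPS, 11.9 to 12.8 in untreated KI, 11.5 to 12.9 in WT LPS and 10.9 to 12.1 in untreated WT libraries, with Acta2 and Tagln called higher and Mylk lower in KI. The 6 osteoblast markers summed to 7.98 to 9.30 in KI LPS, 5.05 to 6.68 in untreated KI, 9.72 to 10.4 in WT LPS and 7.50 to 8.40 in untreated WT libraries. Of 4 adipocyte markers none passed the filter. Of 7 mast cell and basophil markers, 6 were called higher in KI and 6 in WT, 5 of them in both, and they summed to 85.1 to 87.7 in KI LPS, 35.2 to 36.3 in untreated KI, 54.6 to 56.4 in WT LPS and 35.4 to 36.4 in untreated WT libraries. The part of these cells in the result was not tested.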

How the data were processed

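The authors deposited 1 table of 23366 genes by 8 libraries, whose unit is a signal, made from read counts divided by a scaled library size. This scaling was worked out from the values. The tools named in the submitters' processing notes are TopHat2 2.0.9, edgeR and bedtools, with the mm9 build. Not given in the sources used here are the counting rule, strand and annotation, so reads of overlapping genes cannot be assigned with certainty. Every value above 0 was a whole number of reads within 0.001 (100%), which gave the library totals. Among values of 1 to 20 reads, 70.2% to 72.0% were even, as counting in pairs would give, and a floor from reads would then be too low.

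Groups came from the sample titles. Differences were tested 2-sided in log2(signal + 1) with limma 3.58.1 (R 4.3.3) and a variance trend, over 11919 genes with a signal of 1 or more in at least 2 libraries. All 8 libraries entered 1 model of 4 group means, with 4 residual and 19.1 prior degrees of freedom, and a call needed a Benjamini-Hochberg adjusted p below 0.05. A log2 difference is on that scale and understates changes of low genes, while ratios are of mean signals. The alternatives were edgeR 4.0.16 and DESeq2 1.42.0 on the recovered reads, other scalings, pseudocounts and filters, a robust trend, a replicate block, fewer groups, and leaving out each library or the KI LPS group. Named genes were the 10 transcripts, Kdm1a, up to 4 genes of each list with the largest called change in KI and up to 2 in WT, and the 10 genes most like Col1a1. A gene that this rule names is not reported here. Bet1, Col6a2 and Kera were named as neighbours, and markers at or near 0 as checks, outside that rule. The 10 transcripts and the lists were chosen with earlier results of these data known.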

Additional observations from a re-analysis of the deposited data

Results flagged for a closer look

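For 8 of the 10 transcripts, with Dcn as a description since it passed the filter only through KI LPS, the difference between LPS and untreated cells was not the same in KI as in WT, by the interaction in limma with adjustment over all tested genes. The difference in KI minus that in WT, in log2(signal + 1), was 3.46 for Olfml3, 1.95 for Col1a1, 1.77 for Col1a2, 1.54 for Col3a1, 1.52 for Sparc, 1.45 for Col5a1, 0.99 for Dcn and 0.49 for Fn1. Every one was positive, and 31.8% of all tested genes were called in that direction. The KI LPS libraries differ from the other 6 in sex-linked transcripts as well, so these values cannot be told apart from a difference in sex or animal.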

How the results depend on the processing

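Over 20 alternatives, 841 values of single transcripts were recomputed, and 803 kept their direction and their side of the threshold, 16 lost the call and 5 gained one. Another 17 changed direction without being called in either fit, all in LPS against untreated in WT or in KI against WT without LPS. With 2 libraries a group precision is limited, and Dcn, Col5a1 and Col6a1 had the fewest reads of the 9 tested transcripts. In KI against WT without LPS, 1 gene was called, against 31 by DESeq2, 18 with the robust trend, 0 without the filter, and 1 to 481 leaving out 1 library at a time. For LPS against untreated in WT, 3 of the 10 transcripts were called, against 1, Fn1, after quantile normalization and 0 to 3 leaving out 1 library at a time. Col5a1 lost its call in WT by DESeq2 (adjusted p = 0.0699), without the filter (0.0576) and with only the 2 groups in the fit (0.0533). Fn1 was called higher in WT after quantile normalization (0.26 in log2, adjusted p = 0.0444). The causes were not tested. Whether the replicate numbers pair the libraries is not stated, and weak correlations cannot exclude it. The deviations of same-numbered libraries had correlations of 0.119 for KI LPS with untreated KI and -0.0998 for WT LPS with untreated WT. Over all pairs of groups these ran from -0.117 to 0.137. With the replicate block 6736 genes were called in KI, against 6764 without it, and the interaction called 9 of the 10 transcripts, against 8, the gained one being Col6a1 (adjusted p = 0.0481).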

Other observations

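Markers outside the stromal lineages also differed between KI LPS and untreated KI cells, and not in 1 direction. Kdr, an endothelial receptor for VEGF, had 26.3 ± 0.028 in KI LPS and 7.30 ± 0.688 in untreated KI cells (SD, n = 2 each), while Vwf, or von Willebrand factor, had 4.11 ± 0.197 in KI LPS and 13.6 ± 0.305 in untreated KI cells. The 7 endothelial markers summed to 31.7 to 31.8 in KI LPS, 21.0 to 22.8 in untreated KI, 18.7 to 18.9 in WT LPS and 20.5 to 22.4 in untreated WT libraries. Itgax, an integrin of dendritic cells and macrophages, had 4.34 in KI LPS and 35.1 in untreated KI cells, and 2 of 3 tested dendritic markers were called lower in KI while 3 were called higher in WT by limma. Of 7 tested neutrophil markers 5 were called higher in KI and 5 in WT, 4 of them in both. The shares of all tested genes called by limma were 28.5% higher and 28.3% lower in KI, and 26.8% higher in WT. Cd79b, a B cell gene, had 3.96 in KI LPS and 10.1 in untreated KI cells, and was the 1 lymphoid gene of 2 tested that was called.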
